A study of Mus musculus with 15 samples.

Results

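HSF1 binding was examined at 420 places where the ends of 2 or more protein-coding genes lie close together in mouse brown adipose tissue. Peaks of 2 wild type libraries taken at 40 min of cold were merged where they overlapped by at least 1 bp, and 10367 of the 16628 merged regions held a peak of both libraries. A region was kept when its midpoint lay within 1000 bp of an end of each of 2 or more genes on GRCm38, which held for 420 of 10367 regions (4.05%). These are called shared regions below. Of these, 413 lay at ends of 2 genes and 7 at ends of 3, and 835 genes had an end at a shared region. A further 2287 regions (22.1%) lay at an end of 1 gene and 7660 (73.9%) at no gene end.

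The series holds 10 HSF1 ChIP-seq libraries in 5 groups of 2, and 5 input libraries that were not analysed here. Wild type tissue came from room temperature (the RT pair), 40 min of cold (the early cold pair) and 4 h of cold (the 4 h pair). Another wild type pair from 40 min of cold chose the regions and is called the reference pair. TXNIP knockout (KO) tissue from 40 min of cold gave the knockout pair. The labels give no allele, strain or age, and do not say whether the libraries of a group came from separate animals or whether the early cold and reference pairs used the same tissue, so a p-value covers only the spread between libraries. All groups were fixed with 2 mM DSG for 25 min and 0.8% formaldehyde for 12 min. The lists held from 123 peaks (4 h replicate 1) to 14583 (reference replicate 2). The RT lists held 919 and 1269 peaks, the early cold lists 2287 and 1670, 4 h replicate 2 had 351, reference replicate 1 had 12644, and the knockout lists held 10399 and 10633. They give no read counts, so depth is unknown, and whether a region is called moves with list length. Fold means the enrichment over local background that the authors' peak caller wrote for a peak, and the highest peak of a region is given. The tissue label could not be checked with expression data. An end at a shared region was found for 0 of 8 brown adipocyte markers, 0 of 8 skeletal muscle markers, 0 of 8 endothelial markers and 0 of 8 leukocyte markers. The share over all 21887 protein-coding genes was 3.82%, so counts out of 8 cannot check the label.

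HSF1 is the main transcription factor of the heat shock response. On activation it forms trimers that bind heat shock elements, which are inverted repeats of a short unit, and it drives genes for chaperones that fold or refold proteins. Many mammalian genes start back to back with a neighbour on the other strand, so that a stretch of promoter can serve both. The paired mitochondrial chaperonin genes Hspd1 and Hspe1 are a classic case, although with the gene ends used here their bodies overlap.

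Sequences around the summits are given for some of the most and least enriched shared regions, with letters of this element marked. A heat shock element was searched as 3 units in alternation with 2 free bases between units, GAANNTTCNNGAA or TTCNNGAANNTTC, which together cover both strands. Promoter sequences came from RefSeq on GRCm38.p6 (windows of 300 bases, from 250 before to 50 after a start) and covered the summit of reference pair replicate 1 in 174 of 420 shared regions. Up to 45 bases on either side of the summit are given on the forward strand. The first 8 are the shared regions called in 9 or 10 of the 10 lists whose summit was covered, and the last 4 add a pair of TRiC subunits, a histone pair and Swt1/Trmt1l, the strongest covered region outside the first 8. Capitals mark 3 exact units in Hspe1/Hspd1, Mettl23/Jmjd6, Hnrnpa2b1/Cbx3 and H2bc7/H2ac7, 3 units with 1 mismatch in Tsacc/Cct3, Vipas39/Ahsa1 and Cct5/Atpsckmt, and 2 exact units (GAANNTTC or TTCNNGAA) in Cct7/Pradc1 and Cct6a/Psph.
Hspe1/Hspd1, chr1:55087987-55088077: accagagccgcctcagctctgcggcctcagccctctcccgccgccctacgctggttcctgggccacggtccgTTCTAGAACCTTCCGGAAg
Mettl23/Jmjd6, chr11:116843296-116843386: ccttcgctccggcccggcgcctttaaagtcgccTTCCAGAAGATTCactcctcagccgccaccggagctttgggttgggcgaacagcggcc
Hnrnpa2b1/Cbx3, chr6:51469803-51469893: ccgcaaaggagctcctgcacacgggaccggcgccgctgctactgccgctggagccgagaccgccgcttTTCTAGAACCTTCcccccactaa
Tsacc/Cct3, chr3:88297143-88297233: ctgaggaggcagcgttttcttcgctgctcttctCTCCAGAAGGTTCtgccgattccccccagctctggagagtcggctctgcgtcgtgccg
Vipas39/Ahsa1, chr12:87266711-87266777: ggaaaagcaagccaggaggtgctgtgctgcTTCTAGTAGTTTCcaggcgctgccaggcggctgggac
Cct7/Pradc1, chr6:85451989-85452079: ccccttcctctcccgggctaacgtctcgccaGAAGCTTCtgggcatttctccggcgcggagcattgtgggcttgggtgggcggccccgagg
Hspa1a/Hspa1l, chr17:34972309-34972399: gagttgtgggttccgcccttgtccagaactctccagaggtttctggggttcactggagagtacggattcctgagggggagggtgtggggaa
Golga1/Scai, chr2:39065721-39065791: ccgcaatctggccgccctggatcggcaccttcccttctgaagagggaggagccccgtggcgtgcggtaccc
Cct5/Atpsckmt, chr15:31601836-31601926: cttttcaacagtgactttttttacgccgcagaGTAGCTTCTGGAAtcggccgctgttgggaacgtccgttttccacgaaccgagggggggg
H2bc7/H2ac7, chr13:23574132-23574222: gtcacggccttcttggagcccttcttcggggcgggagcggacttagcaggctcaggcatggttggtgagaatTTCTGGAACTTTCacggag
Cct6a/Psph, chr5:129787379-129787469: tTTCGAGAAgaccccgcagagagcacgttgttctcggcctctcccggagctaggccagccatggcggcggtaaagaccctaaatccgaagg
Swt1/Trmt1l, chr1:151428413-151428503: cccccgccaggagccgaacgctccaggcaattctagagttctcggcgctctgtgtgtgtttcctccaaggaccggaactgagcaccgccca

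Hspe1/Hspd1 held 2 overlapping matches of 3 units. The Hspa1a/Hspa1l, Golga1/Scai and Swt1/Trmt1l stretches held no match of any of these forms within the letters shown. Forms with more mismatches were not searched, so an element that departs further from these letters would be missed. Of the 8 covered regions called in 9 or 10 lists, 5 (62.5%) had 3 units with at most 1 mismatch. The share was 6 of 24 (25%) for regions called in 5 to 8 lists, 6 of 103 (5.83%) for 3 or 4 lists and 2 of 39 (5.13%) for 2 lists. The same length at the centre of all 32851 promoter windows held such an element in 640 cases (1.95%). Some stretches at the summits were shorter than that length because the promoter window ended. The 3 following sequences come from shared regions with folds of about 3 and hold none of these forms.
Ndufa5/Asb15, chr6:24527538-24527628: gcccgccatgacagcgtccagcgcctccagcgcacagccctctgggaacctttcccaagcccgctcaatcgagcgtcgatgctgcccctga
Bet1l/Ric8a, chr7:140857260-140857350: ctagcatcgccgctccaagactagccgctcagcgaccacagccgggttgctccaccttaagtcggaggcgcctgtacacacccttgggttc
Dtwd1/Fam227b, chr2:126151941-126152031: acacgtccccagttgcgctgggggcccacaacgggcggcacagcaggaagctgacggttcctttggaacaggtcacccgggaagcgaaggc

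**Figure D1:**
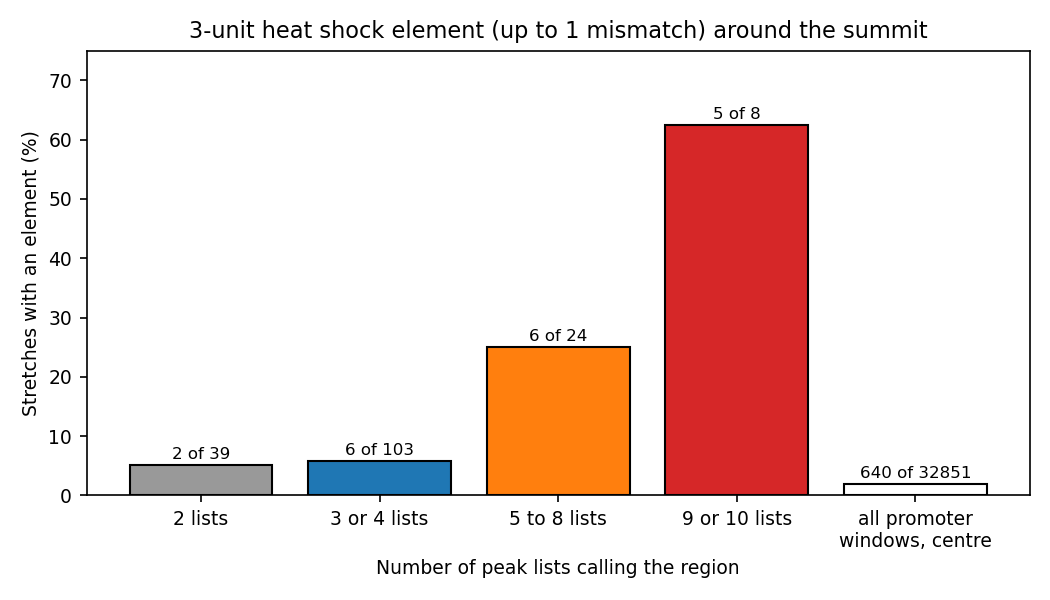
Share of stretches around the summit (bars, in percent) that hold 3 heat shock units with at most 1 mismatch. Bars are for the 174 covered shared regions, grouped by the number of peak lists that call them, and for the centres of all promoter windows. Shared regions on chromosome 18 are left out. The bar for regions in 9 or 10 lists reaches 62.5% (5 of 8), and the bar for all windows 1.95%.

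The exact element was also counted in whole promoter windows. Promoter windows with a start within 1000 bp of the midpoint were found for 357 of 420 shared regions (695 windows). The 3-unit element was in 17 of 695 windows (2.45%), against 198 of 32851 of all windows (0.603%) and 24 of 1867 (1.29%) at regions with 1 gene end. The gap was smaller for looser forms: 3 units with 1 mismatch were in 9.64% of windows at shared regions, 8.30% at regions with 1 gene end and 7.22% of all windows, and 2 units in 15.7%, 14% and 15.1%. Windows at the 41 shared regions called in both RT libraries held it in 10 of 71 (14.1%), and the remaining windows in 7 of 624 (1.12%). At regions with 1 gene end the RT share was 11 of 158 (6.96%). No test was made of these shares, and windows of one region overlap, so they are not independent. Median GC content of the windows was 63.7% at shared regions, 64.7% at regions with 1 gene end and 52.7% over all windows.

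With chromosome 18 left out, which the window counts above include, an exact element was found in a window of 10 shared regions. The centre of the element nearest the summit lay from 1 to 105 bases from it. At Fam76b/Cep57 the element was 1 base from the summit, and the region had folds of 3.89 and 3.82, which is weak. Gm51460/Phrf1 (centre 2 bases away) had folds of 32.8 and 36.5, and Mettl23/Jmjd6 (6 bases) 234 and 240. Rps18/Vps52 had the longest distance, at 105 bases.

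Other promoter motifs were searched on both strands. The ETS motif (CCGGAAG) was in 26.6% of windows at shared regions, 16.7% at regions with 1 gene end and 8.86% of all windows. The GC box (GGGCGG) was in 69.8%, 75.5% and 35.7% of the same sets, and the CCAAT box (CCAAT) in 36.3%, 36.3% and 37.4%. The ETS motif stood higher at shared regions than at regions with 1 gene end, while the CCAAT box was at about the share of all windows. Here too windows of one region overlap, so 1 site can count more than once. The sets held 695 windows for 357 shared regions and 1867 for 1648 regions with 1 gene end. No test was made, and divergent promoters without an HSF1 region were not counted apart.

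Most shared regions were weak peaks with a short, strong tail. In the reference pair, the median fold was 4.98 and 5.06, against 5.33 and 5.32 at regions with 1 gene end and 6.28 and 6.52 over all 10367 regions. Shared regions with a fold under 5 were 52.1% and 50% of the 420, against 34.3% and 33% of all regions. At the other end 15 shared regions (3.57%) in each library exceeded 100, against 1.34% and 1.40% of all regions and 2.62% and 2.75% of regions with 1 gene end. These 2 libraries chose the regions, so the values are a description. In the knockout pair, the median folds of the regions called were 6.19 and 5.75 for shared regions, and 6.19 and 5.73 at regions with 1 gene end. Spearman's rho between replicates over the shared regions called in both was 0.831 (n = 420) for the reference pair, 0.913 (n = 270) for the knockout, 0.953 (n = 55) for the early cold pair, 0.955 (n = 41) for RT and 0.6 (n = 9) for 4 h, the lowest of the 5 groups.

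**Figure D2:**
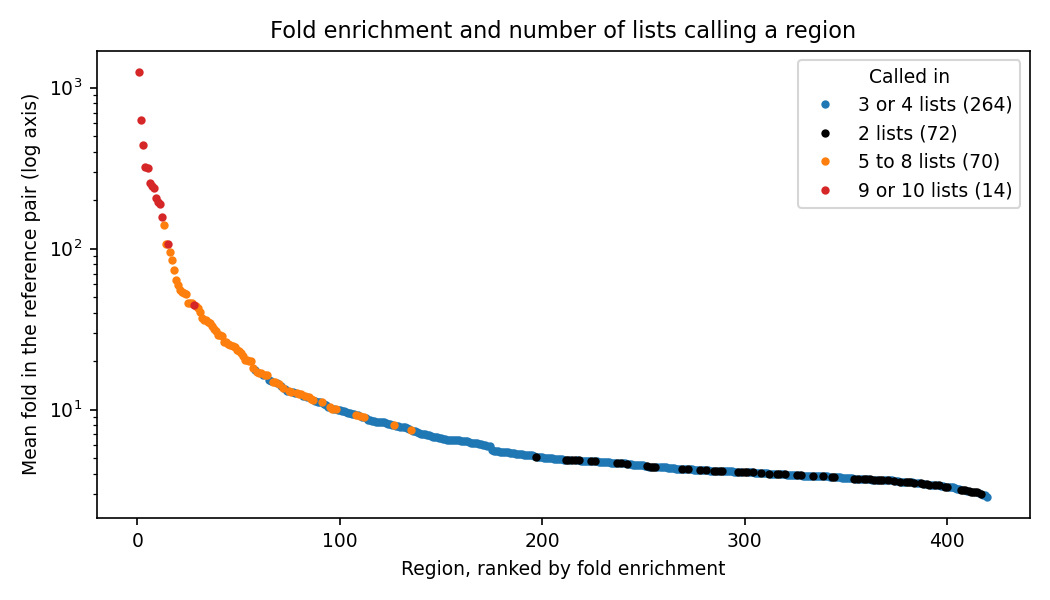
The 420 shared regions in order of mean fold in the reference pair (y axis, log scale), coloured by the number of the 10 peak lists that call them. The 14 regions in 9 or 10 lists have folds from 39.4 to 1296 in replicate 1, and the 72 regions called by the reference pair alone from 2.89 to 5.97.

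The strongest shared region was the Hspe1/Hspd1 pair (chr1:55085844-55090242), where the starts of HSP10 and HSP60, the chaperonin of the mitochondrial matrix, lie 95 bp apart with overlapping bodies. Its fold was 194 and 193 in the RT pair, 400.4 and 328 under early cold, 53.6 and 117 at 4 h, 1296 and 1209.9 in the reference pair, and 1148 and 1109 in the knockout. It had the highest fold of all shared regions in every one of the 10 lists.

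St13/Xpnpep3 (chr15:81398585-81400887) came next; St13 encodes the HSP70-interacting protein Hip. Its folds were 126 and 118 in the RT pair, 156 and 154 under early cold, 44.6 and 78.9 at 4 h, 632 and 623 in the reference pair and 509.7 and 538 in the knockout. The Hspa1a/Hspa1l region (chr17:34971567-34973408) joins the inducible HSP70 gene Hspa1a to Hspa1l, an HSP70 gene best known from testis. Its folds were 81.3 and 96.1 in the RT pair, 139 and 123 under early cold, 8.27 and 15.7 at 4 h, 424 and 453 in the reference pair and 383 and 340.3 in the knockout. Hspa1a has a near-identical copy, Hspa1b, so how reads were divided between the copies is uncertain. At 4 h, Hspe1/Hspd1 and St13/Xpnpep3 were the 2 highest shared regions in both lists, and Hspa1a/Hspa1l was below Hnrnpa2b1/Cbx3 (8.50 and 17.5).

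Of 8 TRiC subunits, the cytosolic chaperonin that folds actin and tubulin, 4 had an end at a shared region and the other 4 at a region with 1 gene end. Cct7/Pradc1 (chr6:85450738-85453455) had folds of 57 and 57.2 in the RT pair, 66.3 and 52.5 under early cold, 11.7 in 4 h replicate 2 alone, 309 and 335 in the reference pair and 284 and 249 in the knockout. Tsacc/Cct3 (chr3:88296372-88298231) was at 21.2 and 23.2 in the RT pair, 34.8 and 36.5 under early cold, 5.97 and 14.3 at 4 h, 151 and 163 in the reference pair and 130.1 and 134 in the knockout. Cct6a/Psph (chr5:129786533-129788135) and Cct5/Atpsckmt (chr15:31600526-31602850) had RT folds of 14.2 and 13.4, and of 16 and 15, and neither was called at 4 h. All 4 TRiC regions were called in both RT libraries.

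Among 43 heat shock chaperones and co-chaperones, 8 had an end at a shared region, 23 at a region with 1 gene end only, and 12 at neither. Vipas39/Ahsa1 (chr12:87265699-87267856) holds the start of Ahsa1, which stimulates the HSP90 ATPase. Its folds were 38.6 and 41 in the RT pair, 73.7 and 55.9 under early cold, 9.11 in 4 h replicate 2 only, 242 and 268 in the reference pair and 227 and 199.8 in the knockout. Fubp1/Dnajb4 (Dnajb4 is an HSP40 co-chaperone of HSP70) was at 10.3 and 11.3 in the RT pair, 22.8 and 20.2 under early cold, and 95.8 and 93.8 in the reference pair, with no peak at 4 h. The other chaperone regions of this list were weak: Pfdn2/Nit1 (3.94 and 7.1 in the reference pair), Bag1/Chmp5 (5.57 and 4.12) and Slc35b2/Hsp90ab1 (3.98 and 4.80). Hsp90ab1, which encodes HSP90 beta, has its strong peak elsewhere: a region with 1 gene end at chr17:45570153-45575004 had folds of 763 and 771 and was called in all 10 lists.

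In the other chaperone lists, 3 of 17 mitochondrial and 3 of 20 endoplasmic reticulum genes had an end at a shared region. Hsp90b1/Ttc41 (chr10:86704411-86706690), with the HSP90 of the endoplasmic reticulum, had folds of 14.3 and 12.1 in the RT pair, 29.2 and 23.4 under early cold, 7.85 in 4 h replicate 2, 108 and 104 in the reference pair and 96.5 and 79.4 in the knockout. Dnajb11, Fkbp2 and the mitochondrial protease gene Htra2 lay at regions with folds under 8 in both libraries of the reference pair. Over all 21887 protein-coding genes, 3.82% had an end at a shared region, and this share is a description beside the list counts.

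Strong shared regions also lay at genes that are not chaperones. Azi2/Zcwpw2 (chr9:118040051-118041769; Azi2 is an adaptor of the kinase TBK1) had folds of 26.7 and 33.4 in the RT pair, 86.3 and 70.4 under early cold, 5.74 and 16.1 at 4 h, 313 and 320.4 in the reference pair and 199 and 195 in the knockout. Slc5a3/Mrps6, where a myo-inositol transporter and a mitochondrial ribosomal protein start on one strand, reached 236 and 256 in the reference pair. Mettl23/Jmjd6 reached 234 and 240, Trim65/Mrpl38 198 and 217, Hnrnpa2b1/Cbx3 (an RNA-binding protein and a heterochromatin protein) 196 and 195, and Ears2/Ubfd1 191 and 186. Of these, Ears2/Ubfd1 had no peak in 4 h replicate 1, and the others were called in all 10 lists.

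**Figure D3:**
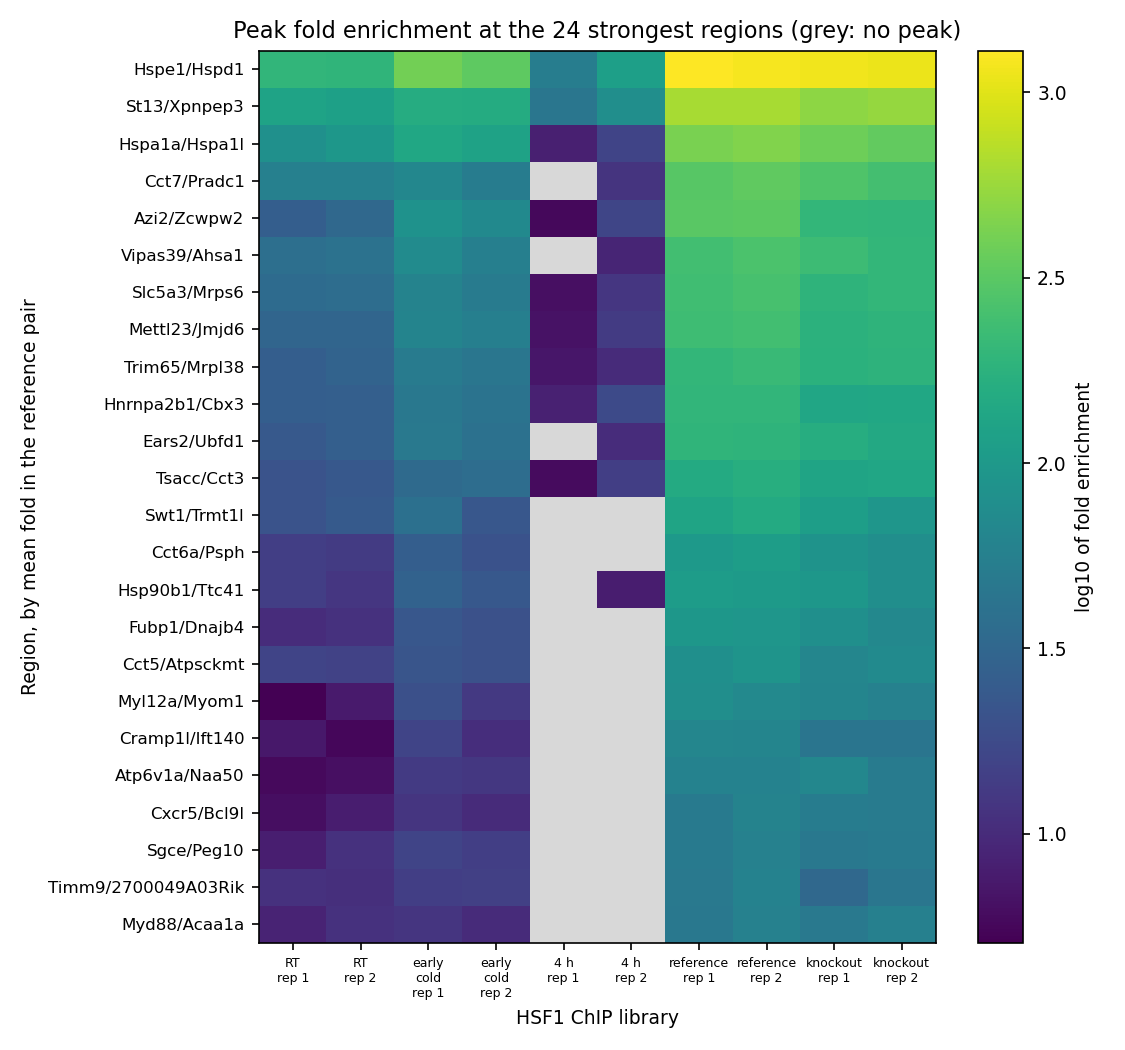
Fold of the authors' peak caller (colour, log10) at the 24 shared regions with the highest mean in the reference pair, in each of the 10 HSF1 ChIP libraries; grey means no peak. Hspe1/Hspd1 is highest in every column, and every grey cell is in a 4 h column.

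The other lists are partial samples of their processes, and their counts hold for the listed genes alone. Of 42 listed mitochondrial ribosomal protein genes, 9 had an end at a shared region (11 regions, median folds 7.76 and 8.40 in the reference pair), among them Mrps2/1700007K13Rik (26.1 and 39.8), Mrps7/Gga3 (14.5 and 18.4) and Eme2/Mrps34 (12.3 and 16.3). That list lacks Mrps6 and Mrpl38, which lie at 2 of the strongest shared regions, Slc5a3/Mrps6 and Trim65/Mrpl38. Counted by symbol after the values were seen, 14 of 78 mitochondrial ribosomal protein genes lay at 16 shared regions (median folds 6.77 and 7.29), of which those 2 were called in both RT libraries. Of 39 listed respiratory chain and ATP synthase genes, 8 had one (median folds 4.58 and 4.14), among them Mrpl47/Ndufb5 (7.76 and 8.75), Atp5c1/Kin (6.37 and 4.80) and Ndufs3/Kbtbd4 (4.58 and 4.63). Of 46 genes in the DNA repair list, 6 had one, among them Pold1/Nr1h2 (7.59 and 4.77); Nbr1 and Osgep are counted in that list although they are not repair genes. The histone pair H2bc7/H2ac7 had folds of 38.2 and 33.8. Cytosolic ribosomal proteins contributed 2 of 33 genes, proteasome subunits 1 of 32, immediate early genes 1 of 30 (Jund), thermogenic genes 1 of 28 (Esrra), general adipocyte genes 1 of 30 (Pnpla2), and ubiquitin genes 0 of 18.

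Most shared regions lay at starts. Where the strand of both genes was known, 140 had divergent starts (33.3% of 420; median distance between starts 113.5 bp) and 98 had divergent starts with overlapping bodies (23.3%). A start and an end of transcription met at 60 (14.3%), 2 starts on one strand at 8 and 2 ends of transcription at 8. For 99 regions at least 1 gene had no strand entry, and 7 regions had 3 genes, with mean folds from 3.41 to 4.86, the highest at LOC115486880/Rspry1/Psme3ip1 (3.72 and 6), Wdr74/1700092M07Rik/Stx5a and Smim27/Topors/Ndufb6. Median folds were 4.87 and 4.70 for divergent starts. The 8 regions at 2 ends of transcription had medians of 13.1 and 11.6, led by Trpc4ap/Myh7b (27.2 and 35.8) and Gm867/Chchd10 (28.1 and 23). Of the regions with divergent starts, 21 (15%) were called in both RT libraries, against 9.76% of shared regions and 7.64% of all regions. The share was 7.14% with overlapping bodies, 10% at a start and an end, 12.5% at 2 starts on one strand, 12.5% at 2 ends and 5.05% where a strand was missing.

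A larger share of starts in divergent pairs than of other starts lay near an HSF1 region. Among 573 divergent pairs of neighbours whose bodies do not overlap, with starts up to 1000 bp apart, 141 (24.6%) had a region. Of 1146 starts in such a pair, 285 (24.9%) lay within 1000 bp of a region, against 2057 of 16346 other starts (12.6%). The other starts include 639 in divergent pairs with overlapping bodies, such as Hspe1/Hspd1, of which 201 (31.5%) lay near a region, and the remaining 15707 had a share of 11.8%. In RT replicates 1 and 2 the shares were 3.66% and 4.62% of paired starts and 1.08% and 1.28% of other starts. At 4 h they were 0.698% and 1.22%, against 0.226% and 0.392%. The share was higher for paired starts in each of the 10 lists. Both starts of a pair can count for 1 peak, and no test was made.

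**Figure D4:**
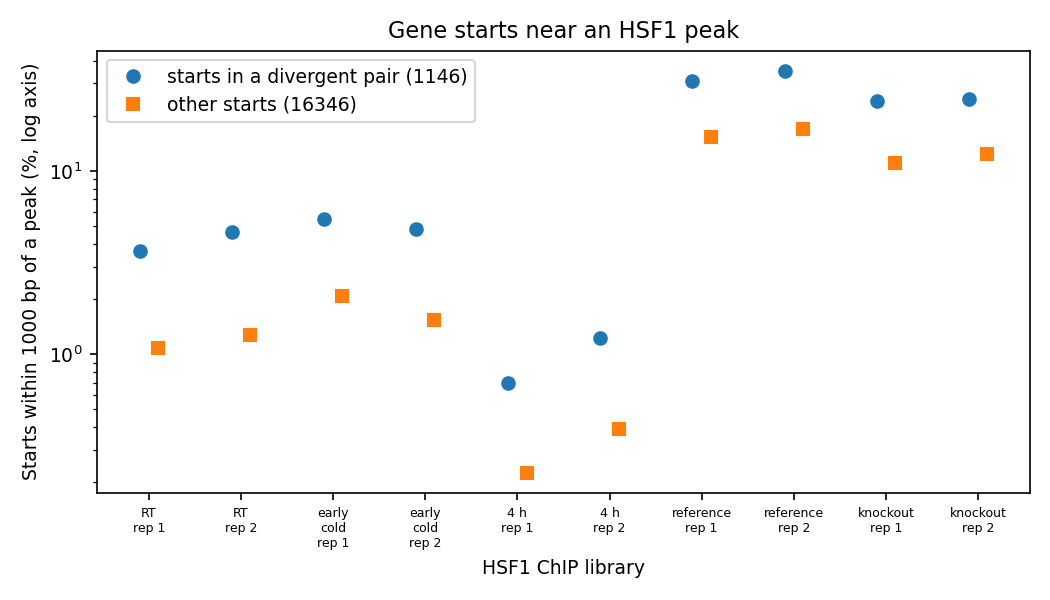
Share of gene starts within 1000 bp of a peak (percent, log axis) in each of the 10 libraries, for 1146 starts in a divergent pair and 16346 other starts. The share of paired starts lies above that of other starts in every library, for example at 3.66% and 1.08% in RT replicate 1.

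The share called was also compared with that of all regions in the 8 libraries that did not choose the regions. It was higher for shared regions in the RT and 4 h libraries, and lower in the early cold and knockout libraries. In the RT pair 43 and 51 shared regions were called (10.2% and 12.1%, against 8.58% and 11.9% of all regions). The early cold pair called 81 and 57 (19.3% and 13.6%, against 21.4% and 15.6%), 4 h libraries 9 and 14 (2.14% and 3.33%, against 1.05% and 3.29%), and knockout libraries 304 and 314 (72.4% and 74.8%, against 77.8% and 78.4%). The 2 libraries of a group called 41 together in the RT pair (9.76%, against 7.64% of all regions), 55 under early cold (13.1%, against 14.1%), 9 at 4 h (2.14%, against 1%) and 270 in the knockout (64.3%, against 69.1%). At regions with 1 gene end, the shares called by both libraries were 7.96% in the RT pair, 12.3% under early cold, 1.71% at 4 h and 64.2% in the knockout. All 10 lists called 9 shared regions (2.14%, against 0.916% of all regions). Regions called in both RT libraries and also in both 4 h libraries were 9 shared regions and 37 of 2287 regions at 1 gene end.

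Compared with regions at 1 gene end, the share called was higher by 0.468 percentage points ± 0.856 (SD, n = 8 libraries; two-sided exact sign-flip permutation p = 0.164), positive in 7 of 8 libraries. Without knockout replicate 2, the only library with a lower share at shared regions, the difference was 0.699 points. All remaining differences were then positive, so the exact permutation p of 0.0156 was the smallest possible. Over regions whose reference pair peaks had a −log10 q of at least 5, the difference was 1.79 points (exact permutation p = 0.0078, the smallest that 8 libraries allow). That filter used the peaks that chose the regions, so its p is not separate support. With the same limit on the calls, the difference was 0.174 points (exact permutation p = 0.688). The median percentile of fold within a list differed by 0.478 points ± 4.81 over all 10 libraries (SD; exact permutation p = 0.770), positive in 6 of 10. This includes the reference pair, whose peaks chose the regions. Over the other 8 libraries it was 1.48 points ± 4.89 (SD; exact permutation p = 0.453), positive in 6 of 8.

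**Figure D5:**
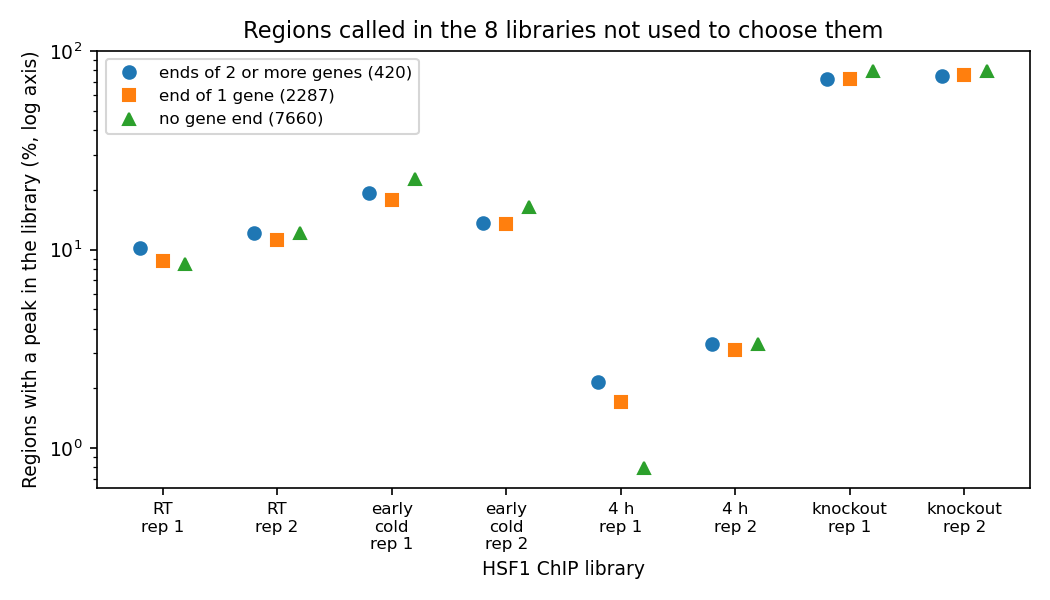
Share of regions with a peak (percent, log axis) in the 8 libraries not used to choose the regions, for the 420 shared regions, 2287 regions at 1 gene end and 7660 at no gene end. Shared regions and regions at 1 gene end lie at most 1.49 percentage points apart in each library.

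Over the time course, the number of shared regions called was on average 47 ± 5.66 in the RT pair, 69 ± 17 under early cold and 11.5 ± 3.54 at 4 h (SD, n = 2 libraries each). Counts over all 10367 regions moved the same way. They were 890 and 1236 in the RT pair, 2218 and 1621 under early cold, and 109 and 341 at 4 h. On the log2 scale the differences were 0.54 from RT to 40 min, −2.06 to 4 h, and −2.60 from 40 min to 4 h. Libraries did not overlap in these comparisons, but each exact two-sided permutation p was 0.333, the smallest that 2 against 2 libraries can give, and 0.333 after adjustment over the 3 comparisons. List length moved the same way, and its part in these counts was not tested.

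Between RT and 40 min, 6 shared regions had a peak in each early cold list and in neither RT list (1.43%, against 3.86% of all regions), and 0 the other way (against 0.0482%). They were Tubgcp4/Zscan29 (folds 14 and 8.91 under early cold), Mrps2/1700007K13Rik (7.97 and 9.74), Mapk1ip1l/Gm35078 (9.18 and 5.57), Ccni/2010109A12Rik (6.77 and 5.57), Rps18/Vps52 (6.04 and 4.17) and Rpl15/Nkiras1 (4.17 and 4.45). Rps18, Rpl15 and Mrps2 encode ribosomal proteins. The count was 29 without replicate 2 of the early cold pair and 13 without RT replicate 2. With lists cut to the same length of 919 peaks it was 1, with 2 the other way.

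From RT to 4 h, 0 shared regions were gained (against 0.0289% of all regions) and 27 were lost (6.43%, against 4.99%), meaning called in both libraries of the earlier group and neither at 4 h. From 40 min to 4 h, 0 were gained (against 0.00965%) and 41 lost (9.76%, against 10.9%). With all lists cut to 123 peaks the losses were 2 and 1, and 9 shared regions were in all 4 lists in each comparison. Without replicate 2 of the early cold pair the 41 became 67. The lost regions with the highest RT folds were Swt1/Trmt1l (21.2 and 24.2), Cct5/Atpsckmt and Cct6a/Psph, then Taf6/Cnpy4 (11.4 and 11.1), Timm9/2700049A03Rik (11.2 and 10.7; Timm9 is a mitochondrial import chaperone), Fubp1/Dnajb4, Apoe/Tomm40 (10.7 and 10.2) and Myd88/Acaa1a (8.82 and 11.3; Myd88 is an adaptor of Toll-like receptors). Of the regions called at 40 min and not at 4 h, Myl12a/Myom1 (19.6 and 12.8 under early cold) and Sgce/Peg10 (15.9 and 14.2) also ranked high.

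Of the 41 shared regions called in both RT libraries, 9 (22%) were called in both 4 h libraries, 5 (12.2%) in 1, and 27 (65.9%) in neither. Over all 792 regions called in both RT libraries the shares were 12%, 22.7% and 65.3%, and over the 182 at 1 gene end 20.3%, 16.5% and 63.2%, so the share lost was near that of all regions. Median RT folds were 31.2 and 33.4 for the 9 shared regions, 24.1 and 27.3 for the 5, and 6.91 and 7.56 for the 27. The lowest of the 9 was 21.2 and 23.2, and the highest of the 27 was 21.2 and 24.2. The 5 overlapped the 27: Golga1/Scai, called in 4 h replicate 2 with a fold of 6.43, had RT folds of 4.91 and 4.30, under the medians of the 27.

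In the knockout, the reference pair stood beside it at the same time, and since that pair chose the regions no test was made. Of 420 shared regions, 72 (17.1%, against 12.9% of all regions) were called in neither knockout library and 78 (18.6%, against 18.1%) in 1. At regions with 1 gene end these shares were 16.1% and 19.7%. Median reference pair folds were 3.98 and 3.60 for the 72, 4.07 and 3.94 for the 78 and 7.17 and 7.88 for the 270 called in both. None of the 72 exceeded 5.97 in replicate 1 or 5.49 in replicate 2, and all 72 were called in no other list. The highest of them were Lamtor1/Tomt (5.57 and 4.63), Akip1/Denn2b (4.38 and 5.37) and Wdr25/Wars (5.97 and 3.77). All 84 shared regions called in any time course library were in both knockout lists, as were all 448 such regions at 1 gene end and 2470 of 2486 (99.4%) of all regions.

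At the 1000 bp limit, the regions just inside were Tctex1d4/Btbd19 and Ccdc106/U2af2 (farther gene end at 999 bp; folds 7.72 and 8.97, and 3.89 and 5.70) and Pcsk4/Reep6 (987 bp; 16.5 and 13.4). Just outside lay Pnpla7/Mrpl41 (1001 bp; 8.56 and 11.5), Nxf1/Stx5a (1004 bp; 6.77 and 10.3) and Cfap221/Sctr (1006.5 bp; 27.5 and 26.2). The lowest mean folds of the reference pair were at 1700056E22Rik/Dusp10 (2.99 and 2.76), Dtwd1/Fam227b (2.96 and 2.92), Bet1l/Ric8a (2.99 and 2.92), Phkb/Itfg1 (3.38 and 2.55), Ptrhd1/Cenpo (2.87 and 3.15) and Ndufa5/Asb15 (3.19 and 2.92). A pair of gene sets, Tssk6/Ndufa13 and Mif4gd/Mrps7, had 2 shared regions each. In all, 11 genes lay at more than 1 shared region, and 18 of the 420 regions share at least 1 gene with another.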

How the data were processed

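Per the submitters' processing notes, processing used MACS2 2.2.7.1, BWA 0.7.17, deepTools 3.4.3, Trim Galore 0.6.0 and SAMtools, on GRCm38.p6 (mm10). No source used here gives their settings, or the input behind each list. The authors deposited 1 narrow peak list per ChIP library. The deposited fold is a linear ratio of signal to local background, the deposited −log10 p and −log10 q are those of the peak caller, and the deposited integer score was not used. Depth is unknown because no counts are given.

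Peaks on chromosomes 1 to 19, X and Y were merged at 1 bp overlap. A region is called in a library when a peak overlaps it by 1 bp. Gene ends came from RefSeq (21887 protein-coding genes, of which 17492 had a strand). Tests were exact permutations over libraries. Scripts ran in Python 3.11.15 with NumPy 2.4.6 and SciPy 1.17.1 and were tested on simulated data. Alternatives were the window, the point of the region, the overlap, the q filter, equal list lengths, leaving out libraries and the motif form. Named regions were those at chaperone genes, the 12 best ranked, those called in both 4 h lists, up to 8 per change, those near 3 genes, those at the limit, the weakest and up to 3 per other list. The regions and gene lists were chosen with earlier results of these data known. Sequences are from RefSeq promoters on GRCm38.p6. The 5 inputs were not analysed here, and 1 could not be placed in a group because its labels differ.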

Additional observations from a re-analysis of the deposited data

How the results depend on the processing

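The number of shared regions ranged from 290 (window of 500 bp) to 601 (2000 bp) around 420. The number called per library kept its direction under every alternative run. With the replicate number as a block (replicate block, paired fit), each p was 0.5, the smallest that 2 pairs allow, and the log2 differences stayed 0.54, −2.06 and −2.60; the numbers did not pair the samples (correlations of deviations −0.119, 0.333 and −0.110). A crossed pairing, added after seeing the data, left the same counts of called regions. Lists of equal length gave 1 region gained and 2 lost from RT to 40 min, and losses of 2 and 1 to 4 h, from lists shortened by construction. Leaving out 1 library each, gains from RT to 40 min ranged from 8 to 29, losses from 0 to 1, losses from 40 min to 4 h from 41 to 67 and those from RT to 4 h from 27 to 37. The difference in share called was 1.79 points with a −log10 q of at least 5 in the reference pair, whose peaks chose the regions. It was 0.174 points with that limit on the calls. Without single libraries it was 0.322 to 0.699. Among these it was past the threshold only without knockout replicate 2, the only library with a negative difference. The cause was not tested. The percentile difference ranged from −0.207 (without RT replicate 1) to 1.52, and was −0.150 without 4 h replicate 2; over the 8 libraries that did not choose the regions, added after seeing the data, it was 1.48. The share of windows with a heat shock element was 15.7% for 2 units and 9.64% for 3 units with 1 mismatch, against 15.1% and 7.22% of all windows. Peak lists without counts limit what can be compared: a region not called may be under the threshold of a shorter list.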
